A study of Mus musculus with 8 samples.

Results

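Mitosis genes encode the proteins that condense chromosomes, build the spindle, attach chromosomes to it, time their separation and cut the cell in 2. The 38 genes described here were chosen by name as mitotic cyclins, kinases, kinesins, centromere and condensin genes with their partners. They are 38 of the 41325 genes in the deposited tables, and all 38 had enough reads to enter the test, which covered 17067 genes. The data are RNA sequencing of mouse spinal cord from a study of miR-34 in spinal muscular atrophy, in which too little SMN protein leads to loss of motor neurons. The groups are a triple knockout (TKO), given in the labels as Mir34a-/-; Mir34bc-/-; Mir 449-/-, and wild type (WT), given as C57BL/6J. All mice were at postnatal day 14. Each genotype has 2 lumbar and 2 thoracic cord libraries, so the 4 groups hold 8 libraries. The labels do not give the strain background of the TKO mice, and leave unsaid whether the 2 libraries of a group are from separate mice and whether lumbar and thoracic cords were taken from the same mice. P-values therefore reflect the spread among these samples alone, and that spread may be technical.

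A cell that divides makes most mitotic RNAs late in its cycle and then destroys many of the proteins as it leaves mitosis, so bulk levels of these RNAs are used as a gauge of dividing cells. In the early postnatal cord the dividing cells are mainly glia, above all oligodendrocyte precursors, together with microglia and cells of vessels and meninges, while neurons have left the cycle. The miR-34 and miR-449 microRNAs form a family with a common seed; miR-34 is induced by p53 and is known for repressing cell cycle genes, and miR-449 is known from cells that grow many motile cilia. In bulk tissue fewer dividing cells and less RNA per dividing cell cannot be told apart.

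The libraries held 16195212 to 20907819 reads assigned to genes. Genes of neurons, oligodendrocytes and astrocytes had reads in every library, and Hoxd10, a lumbar Hox gene, had 0 to 0.478 CPM (read counts scaled to library size) in thoracic libraries and 24.5 to 36.1 CPM in lumbar libraries. The 6 hairpin genes of the deleted loci had 0 reads in every library of both genotypes, where a count of 0 allows up to 3 reads, so they do not check the genotype labels in this polyadenylated RNA. Cdc20b, whose interval holds the Mir449 hairpins, had 10, 16, 8 and 18 reads in the 4 TKO libraries and 0, 2, 0 and 1 reads in the 4 WT libraries. The label and the reads therefore separate the genotypes in the same way at that locus. Both TKO libraries numbered 2 stand apart in their mitochondrially encoded reads, which made up 4.99% and 6.53% of gene reads, against 11.98% and 11.86% in the TKO libraries numbered 1 and 9.45% to 16.8% in the WT libraries. Their intronic reads were also the highest, at 6.23% and 6.69%, against 5.09% and 4.40% in the other TKO libraries and 4.39% to 5.22% in the WT libraries.

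The deleted microRNAs are shown first, because a target would pair with the seed that the 4 listed arms share. The sequences of miR-34c-5p and miR-449b are not shown here. Capitals mark bases 2 to 8, the seed GGCAGUG, and the mature sequences are those of RefSeq on GRCm38.p6, written 5′ to 3′.
mmu-miR-34a-5p: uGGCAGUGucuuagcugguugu
mmu-miR-34b-5p: aGGCAGUGuaauuagcugauugu
mmu-miR-449a-5p: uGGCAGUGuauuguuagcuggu
mmu-miR-449c-5p: aGGCAGUGcauugcuagcugg
They lie at chr4:150068473-150068494 on the plus strand, chr9:51103610-51103632 on the minus strand, and chr13:113037549-113037570 and chr13:113036008-113036028 on the plus strand, in the order listed. The matching 7 bases, CACTGCC, were searched in the longest annotated 3′ untranslated region of each gene in GENCODE vM21 on GRCm38. Of the 38 mitosis genes 2 held the match, or 5.26%, against 17.2% of the 15029 tested genes with an annotated region. The regions were shorter in the mitosis genes, with a median of 634 bases against 1184 bases, so the shares are not compared at equal length. The 2 sites are in Cdca8, a subunit of the chromosomal passenger complex, and Mad2l1, a spindle checkpoint protein, and are printed with the matched bases in capitals.
Cdca8: tgtggggtccttCACTGCCaacacctgcaa
Mad2l1: aacacatgagaaCACTGCCcagttagcaca
The Cdca8 site lies at chr4:124918889-124918918 on the minus strand and the Mad2l1 site at chr6:66541273-66541302 on the plus strand. Both genes had lower mean levels in TKO, with log2 fold changes of −0.53 and −0.65, and neither passed the adjusted threshold. A match of letters is a description and not a shown site of repression.

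Over both segments, 37 of the 38 mitosis genes had a log2 fold change, TKO over WT, below 0. The median over the 38 genes was −0.79, beside 0.00040 for the 17067 genes tested, and without Anln, the gene above 0, it was −0.83. Adjusted for all genes tested, no mitosis gene passed 0.05 in edgeR's quasi-likelihood test (Benjamini-Hochberg) in either direction, where the backgrounds were 0.135% of genes lower and 0.223% of genes higher in TKO. The lowest adjusted p among the mitosis genes was 0.0734, for Nusap1. At an unadjusted p under 0.05, 32 of the 38 were lower in TKO, where 8.79% of all genes tested were, and 1, Anln, was higher, where 10.3% of all genes were. With DESeq2, 16 of the 38 passed an adjusted p of 0.05 as lower in TKO, against 1.63% of all genes, and with limma-voom 0 passed. The 16 were Mki67, Nusap1, Kif11, Prc1, Bub1b, Hmmr, Top2a, Ccna2, Cdk1, Kif23, Kif20a, Ttk, Kif4, Birc5, Tpx2 and Kif15. In 24 of the 38 genes all 4 TKO libraries lay below all 4 WT libraries, which held for 5.37% of all genes tested. Without lumbar TKO library 1, 5 genes passed the adjusted threshold by edgeR as lower in TKO, where 0.529% of the genes in that fit did. The adjusted calls thus depend on the test and on the libraries, while the direction of the 37 genes was the same in each of the 23 other fits that gave this contrast.

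**Figure D1:**
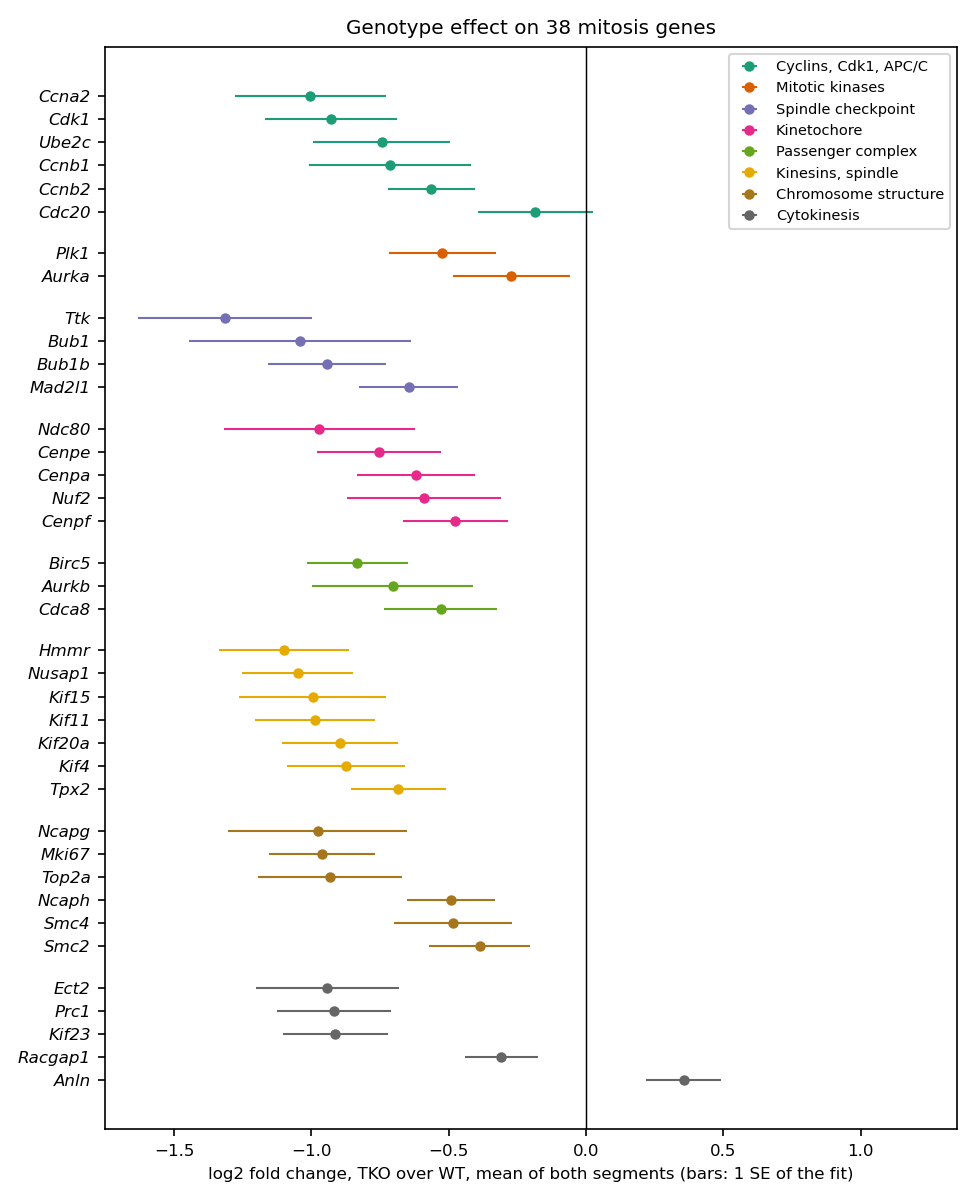
Log2 fold change, TKO over WT, averaged over both segments, for each of the 38 genes grouped by role, with bars of 1 SE of the edgeR fit. All points except Anln at 0.35 lie left of 0, from −1.31 for Ttk to −0.19 for Cdc20.

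Several of these genes share a promoter layout that the choice of genes did not use. The CCAAT box is the site of NF-Y, and the cell cycle gene homology region (CHR) is the site through which MuvB complexes hold such genes silent in resting cells and raise them in late cycle. RefSeq promoters on GRCm38.p6, 250 bases before to 50 bases after each annotated start, were found for 33 of the 38 genes as 35 promoters, and Ccna2, Aurkb, Kif20a, Tpx2 and Smc4 had none in the table. CCAAT and TTTGAA or TTCGAA were searched on both strands, so that ATTGG and TTCAAA count as matches, and a CCAAT box and a CHR match overlapped only in Cdca8, by their end base. A CHR match was in 80% of the 35 promoters, against 14.1% of the promoters of all genes tested. A CCAAT box was in 77.1%, against 37.5%, and both motifs were in 71.4%, against 5.75%. By gene, 26 of the 33 held a CHR match, 25 a CCAAT box and 23 both in the same promoter. CHR matches began between 234 bases before and 40 bases after the start, and CCAAT boxes between 228 bases before and 18 bases after it.

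Promoters are printed for 3 genes with both motifs and low levels in TKO (Cdk1, Top2a and Ttk), for Nusap1, which holds neither motif and had the lowest p, and for Anln, which holds CHR matches alone and had the opposite direction. Capitals mark the motif matches.
Cdk1: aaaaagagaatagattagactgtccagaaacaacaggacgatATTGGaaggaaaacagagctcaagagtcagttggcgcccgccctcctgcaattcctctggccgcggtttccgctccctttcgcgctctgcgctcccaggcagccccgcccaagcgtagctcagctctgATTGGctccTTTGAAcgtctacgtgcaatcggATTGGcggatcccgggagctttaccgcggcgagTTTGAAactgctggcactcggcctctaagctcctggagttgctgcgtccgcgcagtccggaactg
Top2a: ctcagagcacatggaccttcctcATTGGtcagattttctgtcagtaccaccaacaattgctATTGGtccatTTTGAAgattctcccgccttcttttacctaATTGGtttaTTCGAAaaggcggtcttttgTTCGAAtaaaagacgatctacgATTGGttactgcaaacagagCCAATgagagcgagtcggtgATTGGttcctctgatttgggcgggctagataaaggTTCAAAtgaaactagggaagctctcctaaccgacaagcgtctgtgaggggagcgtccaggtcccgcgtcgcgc
Ttk: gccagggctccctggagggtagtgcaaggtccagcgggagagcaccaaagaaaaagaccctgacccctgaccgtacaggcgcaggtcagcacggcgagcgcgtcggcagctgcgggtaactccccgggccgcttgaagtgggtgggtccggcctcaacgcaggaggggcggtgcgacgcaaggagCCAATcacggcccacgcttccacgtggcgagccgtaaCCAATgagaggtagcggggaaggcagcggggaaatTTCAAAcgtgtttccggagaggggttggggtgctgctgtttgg
Nusap1: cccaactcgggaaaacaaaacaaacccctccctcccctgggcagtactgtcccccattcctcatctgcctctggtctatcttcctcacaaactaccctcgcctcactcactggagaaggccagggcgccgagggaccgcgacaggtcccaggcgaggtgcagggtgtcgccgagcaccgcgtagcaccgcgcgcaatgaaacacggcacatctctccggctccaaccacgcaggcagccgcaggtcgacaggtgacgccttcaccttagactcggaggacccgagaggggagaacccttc
Anln: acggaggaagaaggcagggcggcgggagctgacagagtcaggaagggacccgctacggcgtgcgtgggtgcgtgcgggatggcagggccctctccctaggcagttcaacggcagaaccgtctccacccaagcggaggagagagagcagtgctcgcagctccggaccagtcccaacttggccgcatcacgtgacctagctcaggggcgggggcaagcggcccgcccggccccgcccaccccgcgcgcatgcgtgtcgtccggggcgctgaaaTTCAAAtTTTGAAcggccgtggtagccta
They lie at chr10:69352863-69353162, chr11:99024140-99024439 and chr9:22389157-22389456 on the minus strand for Cdk1, Top2a and Anln, and at chr9:83834439-83834738 and chr2:119618048-119618347 on the plus strand for Ttk and Nusap1. Cdk1 held 3 CCAAT boxes and 2 CHR matches, Top2a held 6 and 4, and Ttk held 2 and 1. Anln held 2 CHR matches just inside the transcript and no CCAAT box. Nusap1 without a match and Ttk with 3 had log2 fold changes of −1.05 and −1.31. No match in a window says only that these letters are not in it.

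**Figure D2:**
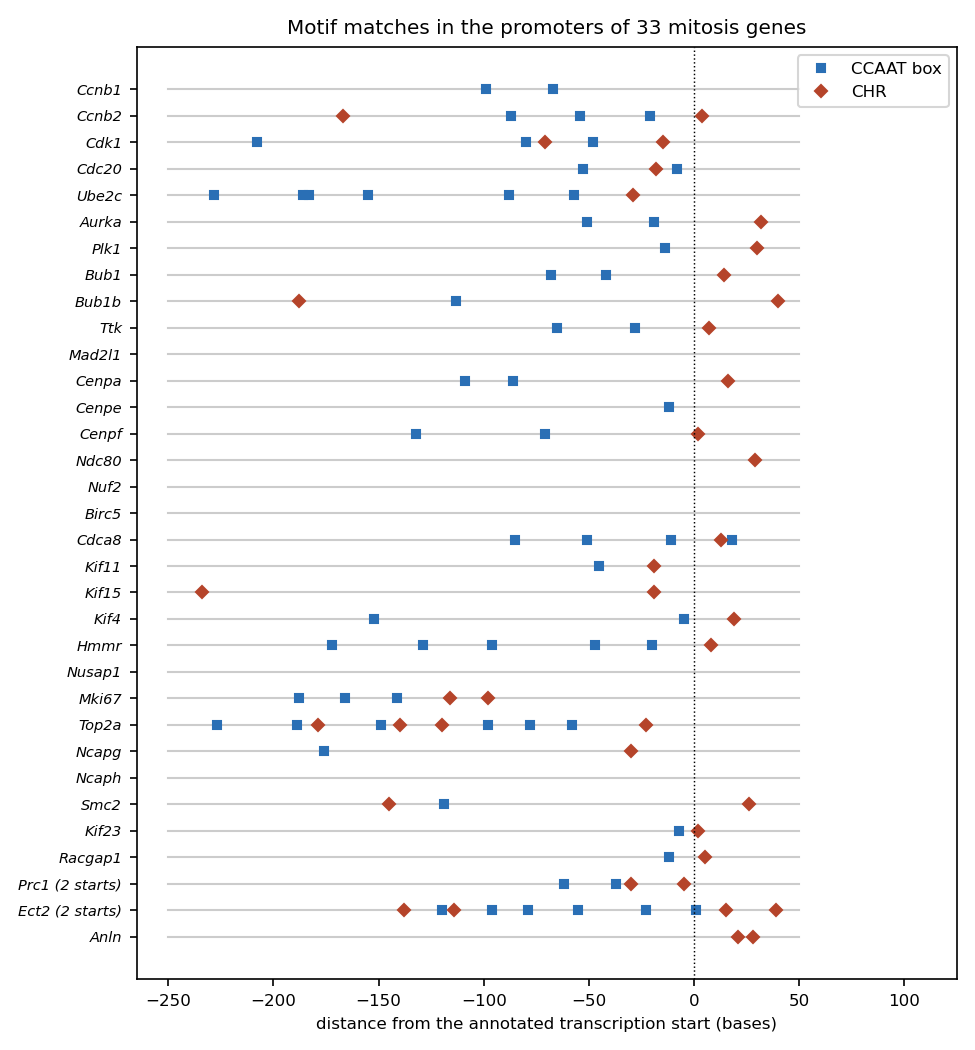
Positions of CCAAT boxes (squares) and CHR matches (diamonds) from 250 bases before to 50 bases after the annotated start in the promoters of 33 mitosis genes, with the matches of 2 annotated starts drawn on the same line for Prc1 and Ect2. In many genes CCAAT boxes lie upstream of the start with a CHR match close to it, and Mad2l1, Nuf2, Birc5, Nusap1 and Ncaph have no match.

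Values below are CPM of total gene reads scaled with TMM factors, with replicate 1 before replicate 2 in each group, and the log2 fold changes and adjusted p-values are from the edgeR fit over both segments unless another contrast is named. Mki67 (ENSMUSG00000031004, mm10 chr7:135689784-135716361, minus strand) encodes Ki-67, which coats mitotic chromosomes and is the common marker of cycling cells. It had 20.9 and 13.8 CPM in lumbar TKO and 15.1 and 9.92 CPM in thoracic TKO, against 27.3 and 26.8 CPM in lumbar WT and 35.0 and 26.0 CPM in thoracic WT. Every TKO library was below every WT library, and the thoracic TKO library numbered 2 was the lowest. Its means were 14.9 ± 4.53 CPM in TKO and 28.8 ± 4.17 CPM in WT (SD, n = 4 each), with a log2 fold change of −0.96 (SE 0.19, edgeR adjusted p = 0.0791).

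Top2a (ENSMUSG00000020914, mm10 chr11:98992943-99024189, minus strand), the DNA topoisomerase that untangles sister chromatids, had 20.7 and 9.16 CPM in lumbar TKO and 16.03 and 9.48 CPM in thoracic TKO, against 24.8 and 27.6 CPM in lumbar WT and 29.8 and 23.1 CPM in thoracic WT. Lumbar TKO library 1 came nearest to the WT range and the TKO libraries numbered 2 lay furthest under it, without overlap between genotypes. Its mean was 13.8 ± 5.54 CPM in TKO and 26.3 ± 2.98 CPM in WT (SD, n = 4 each), with a log2 fold change of −0.93 (SE 0.26, edgeR adjusted p = 0.145). Among the other genes of chromosome structure the condensin subunits Ncapg, Ncaph, Smc2 and Smc4 had log2 fold changes of −0.98, −0.49, −0.39 and −0.48. Smc2 and Smc4, the core subunits that both condensins share, did not reach an unadjusted p of 0.05, and in both the lumbar TKO library numbered 1 was above at least 1 WT library. The median over the 6 genes was −0.71.

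Cyclins A and B switch on Cdk1, the kinase that drives entry into mitosis, and the anaphase-promoting complex with Cdc20 and Ube2c then has cyclin B and securin destroyed. Cdk1 (ENSMUSG00000019942, mm10 chr10:69335146-69352938, minus strand) had 6.78 and 4.06 CPM in lumbar TKO and 6.77 and 3.59 CPM in thoracic TKO, against 9.50 and 11.9 CPM in lumbar WT and 10.4 and 8.76 CPM in thoracic WT. All TKO values were under all WT values. It averaged 5.30 ± 1.71 CPM in TKO and 10.1 ± 1.33 CPM in WT (SD, n = 4 each), and the difference was a log2 fold change of −0.93 (SE 0.24, edgeR adjusted p = 0.132). Ccna2 (ENSMUSG00000027715, mm10 chr3:36564865-36572150, minus strand), cyclin A2, had 9.01 and 4.52 CPM in lumbar TKO and 8.65 and 4.15 CPM in thoracic TKO, against 11.6 and 14.5 CPM in lumbar WT and 14.7 and 12.1 CPM in thoracic WT. Its genotypes did not overlap either, and the TKO libraries numbered 2 held the 2 lowest values. The mean of Ccna2 was 6.58 ± 2.60 CPM in TKO and 13.2 ± 1.60 CPM in WT (SD, n = 4 each), with a log2 fold change of −1.005 (SE 0.28, edgeR adjusted p = 0.141).

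Ccnb1 (ENSMUSG00000041431, mm10 chr13:100778650-100786570, minus strand), cyclin B1, had 5.85 and 3.48 CPM in lumbar TKO and 7.49 and 2.80 CPM in thoracic TKO, against 7.49 and 8.77 CPM in lumbar WT and 8.68 and 7.26 CPM in thoracic WT. Here the genotypes met, since the thoracic TKO library numbered 1 was level with the lowest WT libraries. Its means were 4.91 ± 2.16 CPM in TKO and 8.05 ± 0.787 CPM in WT (SD, n = 4 each), with a log2 fold change of −0.71 (SE 0.30, edgeR adjusted p = 0.242). The median log2 fold change of the 6 genes of this group was −0.73, and Ccnb2 (−0.56) and Ube2c (−0.74) lay near it. Of the 6, 5 were lower at an unadjusted p under 0.05 by edgeR, where 8.79% of all genes tested were. Cdc20, the activator that couples the checkpoint to the anaphase-promoting complex, did not reach that p. Its log2 fold change was −0.62 in the lumbar cord and 0.25 in the thoracic cord, and its difference between segments had the lowest p of the 38 genes, an unadjusted p of 0.0660 and an adjusted p of 0.852 by edgeR.

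**Figure D3:**
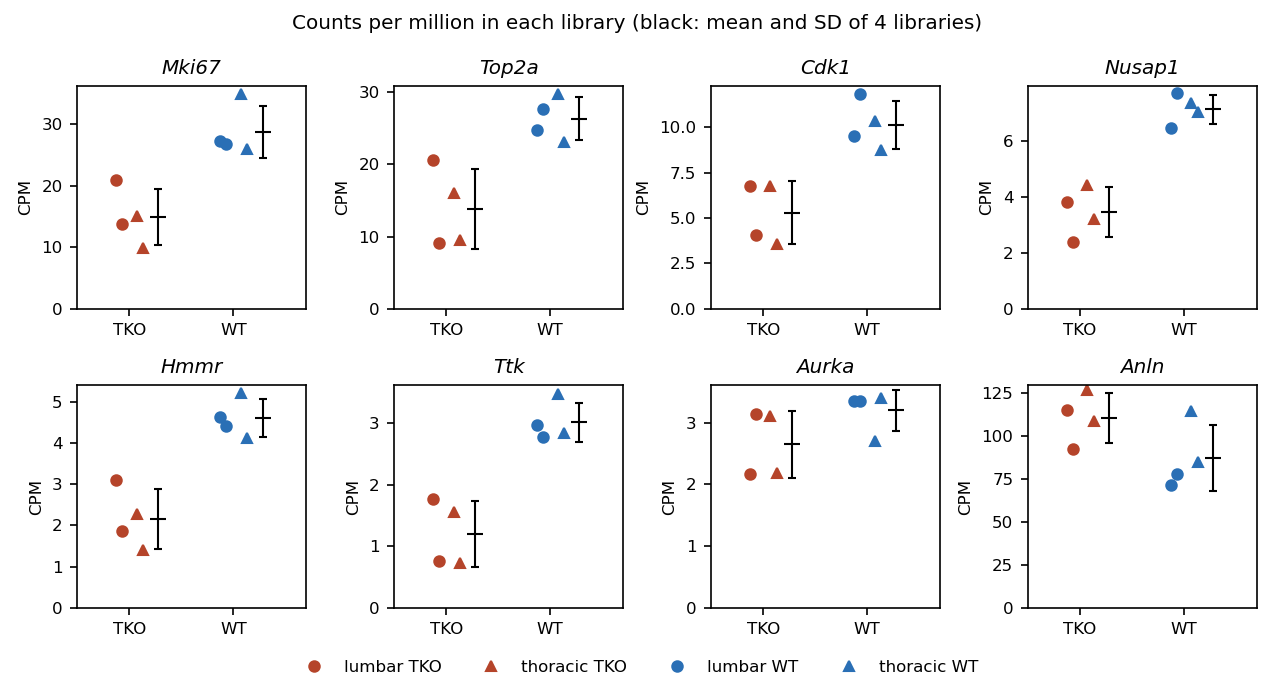
CPM in each library for 8 mitosis genes, TKO left of WT, with circles for lumbar and triangles for thoracic cord and black marks for the mean and SD of 4 libraries. Mki67, Top2a, Cdk1, Nusap1, Hmmr and Ttk do not overlap between genotypes, whereas Aurka and Anln do.

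The kinases Plk1 and Aurka, which mature the centrosomes and build the spindle poles, had the smallest median difference of any role, −0.40 on the log2 scale. Plk1 (ENSMUSG00000030867, mm10 chr7:122159439-122169873, plus strand) had 1.92 and 1.91 CPM in lumbar TKO and 2.16 and 2.02 CPM in thoracic TKO, against 3.46 and 3.56 CPM in lumbar WT and 1.99 and 2.73 CPM in thoracic WT. The lumbar genotypes were apart and the thoracic ones overlapped. Its averages were 2.00 ± 0.118 CPM in TKO and 2.94 ± 0.732 CPM in WT (SD, n = 4 each), and the fitted difference was a log2 fold change of −0.52 (SE 0.20, edgeR adjusted p = 0.217). Aurka (ENSMUSG00000027496, mm10 chr2:172356190-172370535, minus strand) had 2.17 and 3.13 CPM in lumbar TKO and 3.11 and 2.19 CPM in thoracic TKO, against 3.35 and 3.35 CPM in lumbar WT and 2.71 and 3.40 CPM in thoracic WT. TKO and WT values of Aurka overlapped in both the pooled set and the thoracic cord, and it did not reach an unadjusted p of 0.05. Its averages were 2.65 ± 0.542 CPM in TKO and 3.20 ± 0.332 CPM in WT (SD, n = 4 each), with a log2 fold change of −0.27 (SE 0.21, edgeR adjusted p = 0.474).

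The spindle checkpoint delays anaphase until every chromosome is attached. All 4 of its genes here were lower in all TKO libraries than in all WT libraries, as were 5.37% of all genes tested. Ttk (ENSMUSG00000038379, mm10 chr9:83834689-83872389, plus strand), the kinase Mps1 that starts the checkpoint signal, had 1.76 and 0.754 CPM in lumbar TKO and 1.55 and 0.729 CPM in thoracic TKO, against 2.96 and 2.76 CPM in lumbar WT and 3.47 and 2.83 CPM in thoracic WT. The 2 TKO libraries numbered 2 held the lowest values of Ttk. It averaged 1.20 ± 0.535 CPM in TKO and 3.01 ± 0.320 CPM in WT (SD, n = 4 each), and its difference, a log2 fold change of −1.31 (SE 0.32, edgeR adjusted p = 0.118), was the furthest from 0 of the 38 genes. Bub1b (ENSMUSG00000040084, mm10 chr2:118598211-118641591, plus strand), or BubR1, which holds Cdc20 inactive, had 5.85 and 3.54 CPM in lumbar TKO and 4.05 and 2.97 CPM in thoracic TKO, against 6.54 and 9.25 CPM in lumbar WT and 7.50 and 7.98 CPM in thoracic WT. The TKO values again lay wholly under the WT values. Bub1b averaged 4.10 ± 1.25 CPM in TKO and 7.82 ± 1.13 CPM in WT (SD, n = 4 each), with a log2 fold change of −0.94 (SE 0.22, edgeR adjusted p = 0.105). The kinase gene Bub1 and Mad2l1, encoding Mad2, had log2 fold changes of −1.04 and −0.65. All 4 genes were lower at an unadjusted p under 0.05 by edgeR, where 8.79% of all genes tested were.

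Kinetochores join chromosomes to spindle microtubules. Cenpe (ENSMUSG00000045328, mm10 chr3:135212537-135273611, plus strand), the kinesin that carries chromosomes to the spindle equator, had 5.64 and 3.07 CPM in lumbar TKO and 3.94 and 3.08 CPM in thoracic TKO, against 5.87 and 6.54 CPM in lumbar WT and 8.17 and 5.92 CPM in thoracic WT. The genotypes did not overlap, although lumbar TKO library 1 was close to the lowest WT library. Its averages were 3.93 ± 1.21 CPM in TKO and 6.62 ± 1.07 CPM in WT (SD, n = 4 each), with a log2 fold change of −0.75 (SE 0.23, edgeR adjusted p = 0.161). Cenpa (ENSMUSG00000029177, mm10 chr5:30666777-30674830, plus strand), the histone H3 variant that marks centromeres, had 3.99 and 3.54 CPM in lumbar TKO and 5.88 and 3.42 CPM in thoracic TKO, against 7.04 and 7.23 CPM in lumbar WT and 4.75 and 6.85 CPM in thoracic WT. In Cenpa thoracic TKO library 1 was above thoracic WT library 1, so the genotypes overlapped. It averaged 4.21 ± 1.14 CPM in TKO and 6.47 ± 1.16 CPM in WT (SD, n = 4 each), with a log2 fold change of −0.62 (SE 0.21, edgeR adjusted p = 0.198). Of the other kinetochore genes, Cenpf had −0.48, and the microtubule-binding Ndc80 complex subunits Ndc80 and Nuf2 had −0.97 and −0.59 on the log2 scale. Nuf2 did not reach an unadjusted p of 0.05, and Ndc80 had the fewest reads of any mitosis gene in a library, 9 in thoracic TKO library 2.

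The chromosomal passenger complex, with the kinase Aurkb, corrects wrong attachments and later marks the cleavage plane. Birc5 (ENSMUSG00000017716, mm10 chr11:117849251-117855743, plus strand), or survivin, which docks the complex on centromeres, had 3.42 and 3.13 CPM in lumbar TKO and 3.66 and 2.52 CPM in thoracic TKO, against 6.54 and 6.27 CPM in lumbar WT and 4.44 and 5.61 CPM in thoracic WT. No TKO value reached the WT range. Birc5 averaged 3.18 ± 0.490 CPM in TKO and 5.72 ± 0.935 CPM in WT (SD, n = 4 each), with a log2 fold change of −0.83 (SE 0.18, edgeR adjusted p = 0.0963). Cdca8 (ENSMUSG00000028873, mm10 chr4:124918465-124939311, minus strand), or borealin, had 4.30 and 2.90 CPM in lumbar TKO and 3.72 and 2.58 CPM in thoracic TKO, against 5.70 and 4.52 CPM in lumbar WT and 4.49 and 4.79 CPM in thoracic WT. The highest TKO value, in lumbar library 1, was just under the lowest WT value. Its averages were 3.37 ± 0.780 CPM in TKO and 4.87 ± 0.565 CPM in WT (SD, n = 4 each), with a log2 fold change of −0.53 (SE 0.21, edgeR adjusted p = 0.228). Aurkb itself had a log2 fold change of −0.70, and its thoracic libraries overlapped.

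Kinesins and spindle proteins, like the checkpoint genes, showed no overlap, since in all 7 genes every TKO library was below every WT library. That held for 5.37% of all genes tested. The median log2 fold change of the 7 was −0.99. All 7 were also lower at an unadjusted p under 0.05 in the lumbar contrast and in the thoracic contrast of the fit of 8 libraries. Of all genes tested 2.71% and 8.23% were. Nusap1 (ENSMUSG00000027306, mm10 chr2:119618298-119651244, plus strand), which bundles spindle microtubules near chromatin, had 3.83 and 2.38 CPM in lumbar TKO and 4.44 and 3.20 CPM in thoracic TKO, against 6.48 and 7.71 CPM in lumbar WT and 7.35 and 7.06 CPM in thoracic WT. The highest TKO value of Nusap1 was well under its lowest WT value. Its means were 3.46 ± 0.882 CPM in TKO and 7.15 ± 0.520 CPM in WT (SD, n = 4 each), with a log2 fold change of −1.05 (SE 0.20, edgeR adjusted p = 0.0734). Hmmr (ENSMUSG00000020330, mm10 chr11:40701395-40733422, minus strand), which helps focus the spindle poles, had 3.11 and 1.86 CPM in lumbar TKO and 2.27 and 1.40 CPM in thoracic TKO, against 4.64 and 4.41 CPM in lumbar WT and 5.21 and 4.12 CPM in thoracic WT. Lumbar TKO library 1 was the highest TKO value of Hmmr and still under the WT values. It averaged 2.16 ± 0.725 CPM in TKO and 4.59 ± 0.460 CPM in WT (SD, n = 4 each), with a log2 fold change of −1.10 (SE 0.24, edgeR adjusted p = 0.0942). The motor genes Kif11, Kif15, Kif4 and Kif20a had log2 fold changes of −0.99, −0.99, −0.87 and −0.90, and Tpx2, which activates Aurora A on the spindle, had −0.68.

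In cytokinesis the centralspindlin subunits Kif23 and Racgap1, with Prc1 and Ect2, set up the midzone and the contractile ring. Kif23 (ENSMUSG00000032254, mm10 chr9:61915905-61946774, minus strand) had 3.31 and 3.36 CPM in lumbar TKO and 2.61 and 1.79 CPM in thoracic TKO, against 5.25 and 5.58 CPM in lumbar WT and 5.51 and 4.12 CPM in thoracic WT. Its genotypes did not overlap. Kif23 averaged 2.77 ± 0.736 CPM in TKO and 5.12 ± 0.680 CPM in WT (SD, n = 4 each), with a log2 fold change of −0.91 (SE 0.19, edgeR adjusted p = 0.0898). Prc1 (ENSMUSG00000038943, mm10 chr7:80294450-80316259, plus strand), which crosslinks midzone microtubules, had 8.80 and 5.39 CPM in lumbar TKO and 8.37 and 5.55 CPM in thoracic TKO, against 11.5 and 14.8 CPM in lumbar WT and 14.1 and 12.9 CPM in thoracic WT. All 4 TKO values of Prc1 were under its WT values. It averaged 7.03 ± 1.81 CPM in TKO and 13.3 ± 1.47 CPM in WT (SD, n = 4 each), with a log2 fold change of −0.92 (SE 0.21, edgeR adjusted p = 0.0995). Ect2, which activates RhoA at the cleavage site, had −0.94, and Racgap1 had −0.31 with overlapping genotypes.

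Anln (ENSMUSG00000036777, mm10 chr9:22332012-22389188, minus strand), or anillin, the scaffold of the contractile ring and, in oligodendrocytes, a partner of the septin filaments of myelin, had the opposite direction. It had 115 and 92.4 CPM in lumbar TKO and 127 and 109 CPM in thoracic TKO, against 71.7 and 77.9 CPM in lumbar WT and 115 and 85.1 CPM in thoracic WT. Every lumbar TKO value was above both lumbar WT values, while the thoracic genotypes overlapped. Anln averaged 111 ± 14.4 CPM in TKO and 87.4 ± 19.0 CPM in WT (SD, n = 4 each), with a log2 fold change of 0.35 (SE 0.14, edgeR adjusted p = 0.225), so it did not pass the adjusted threshold. Per exon length Anln also stood apart in level, at a mean of 10.2 RPKM over the 8 libraries, with the next gene, Smc4, at 3.15 RPKM. The other 36 genes had mean levels of 3.05 RPKM (Racgap1) to 0.266 RPKM (Kif15). All 12 oligodendrocyte markers were above 0 on the log2 scale beside it, and none was at 0 reads. Their summed level was 59998 to 76607 CPM in TKO and 49718 to 51874 CPM in WT. Of the 12, 1 passed an adjusted p of 0.05 by edgeR as higher in TKO, where 0.223% of all genes tested did. The part of these markers in the Anln value was not tested.

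By segment the lumbar median was −0.75 and the thoracic median −0.81, beside −0.0012 and −0.010 for all genes tested. In the lumbar cord no mitosis gene passed an adjusted p of 0.05 by edgeR, where 0.0234% of all genes were called lower, and the lowest adjusted p was 0.656. At an unadjusted p under 0.05 the lumbar count was 19 lower, against 2.71% of all genes, and both TKO libraries were below both WT libraries in 34 genes, against 17.1% of all genes. In the thoracic cord no gene passed either, where 0.0117% of all genes did, with a lowest adjusted p of 0.190. There 26 were lower at an unadjusted p under 0.05, against 8.23% of all genes, and 29 did not overlap, against 27.4%. Cdc20 and Anln were the thoracic genes above 0. Leaving out the TKO library numbered 2 of a segment gave a median of −0.50 in the lumbar cord and −0.53 in the thoracic cord. The genotype effect did not pass a test of difference between segments for any of the 38 genes by edgeR, adjusted (0.00586% of all genes) or unadjusted (0 genes, against 3.5%). Thoracic against lumbar cord, over both genotypes, gave 0 mitosis genes at an adjusted p under 0.05 (0.082% of all genes) and 0 at an unadjusted p under 0.05 (2.41%), with a median log2 difference of −0.08.

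The summed level of the 37 genes other than Anln was 249 and 167 CPM in lumbar TKO and 225 and 151 CPM in thoracic TKO, against 306 and 339 CPM in lumbar WT and 358 and 303 CPM in thoracic WT. The TKO libraries numbered 2 had the 2 lowest sums, and the highest TKO sum was under the lowest WT sum. The mean was 198 ± 46.5 CPM in TKO and 327 ± 26.7 CPM in WT (SD, n = 4 each). Per exon length the sums were 41.5, 31.8, 38.3 and 27.6 RPKM in the 4 TKO libraries and 55.6, 59.5, 56.5 and 55.4 RPKM in the 4 WT libraries.

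Within TKO, replicate 2 over replicate 1 gave a median log2 ratio of −0.65 over the 37 genes in the lumbar cord, with 33 below 0, and −0.59 in the thoracic cord, with 36 below 0. Within WT the same ratio was 0.14 in the lumbar cord, with 15 below 0, and −0.26 in the thoracic cord, with 26 below 0. Against the mean of the WT libraries of their segment, the TKO libraries numbered 1 had medians of −0.53 (lumbar, 35 genes below 0) and −0.54 (thoracic, 32 below 0), and those numbered 2 had −1.05 (37 below 0) and −1.19 (36 below 0). The TKO libraries numbered 2 are the 2 with the low mitochondrial and high intronic shares given above, and the part of those shares in the difference was not tested. Without both of them, the median over the 38 genes was −0.51 and 18 genes were lower at an unadjusted p under 0.05, against 4.86% of all genes in that fit. Below-WT levels were thus also measured in the other TKO libraries alone, at a smaller size.

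**Figure D4:**
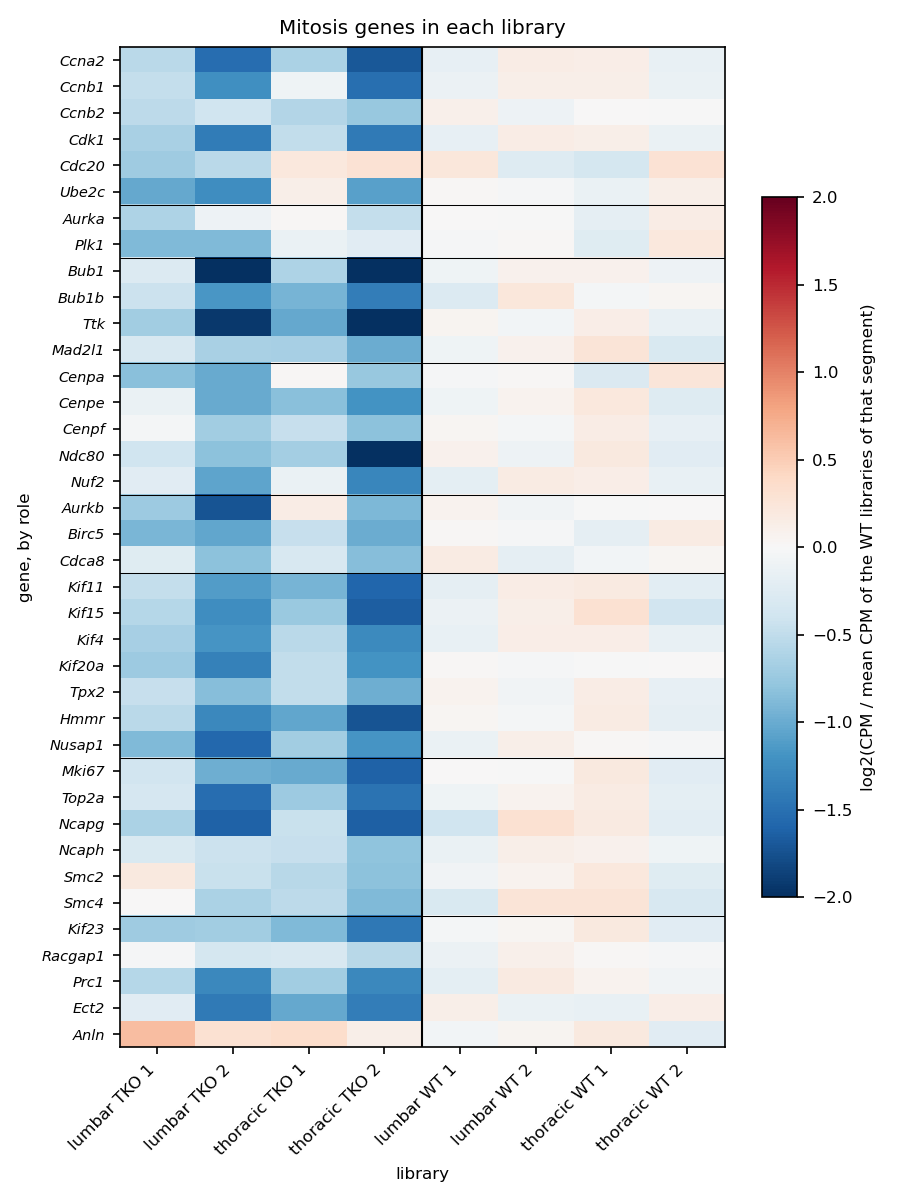
Log2 of CPM over the mean CPM of the WT libraries of the same segment, for 38 genes (down, by role) in 8 libraries (across, TKO left of WT), with blue below and red above the WT mean. The TKO columns numbered 2 are the darkest blue, and the Anln line at the bottom is red in the TKO columns.

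Other genes of the cell cycle are given from lists made by function, with earlier results of these data known. By edgeR over both segments, 8.79% of all genes tested were lower and 10.3% higher in TKO at an unadjusted p under 0.05. Of 64 further mitosis genes 55 were below 0 on the log2 scale, with a median of −0.49, and 28 were lower and 2 higher at an unadjusted p under 0.05, with 0 past the adjusted threshold by edgeR. Those with the smallest p were Kif20b (−1.05), a kinesin of late cytokinesis, Spc25 (−1.26), an Ndc80 complex subunit, Dlgap5 (−1.06), a spindle protein, and Fam83d (1.04, adjusted p = 0.0772), which was above 0. Of 33 DNA replication genes 31 were below 0, with a median of −0.34 and 16 lower at an unadjusted p under 0.05. Among these were Dtl (−1.22), which directs destruction of the licensing factor Cdt1, Rrm2 (−0.84), a ribonucleotide reductase subunit, Mcm6 (−0.83), of the replicative helicase, and the checkpoint kinase gene Chek1 (−0.88). None passed the adjusted threshold.

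The 20 E2F, Rb family and MuvB regulators had a median of −0.21, with 16 below 0. Lower at an unadjusted p under 0.05 were 4, against 8.79% of all genes tested. Those 4 were Lin9 (−0.68), a MuvB subunit, Foxm1 (−0.46) and Mybl2 (−0.59), which act with MuvB on late-cycle genes, and Rbl1 (−0.56), or p107. The cyclins, kinases and inhibitors of G1, the phase before DNA synthesis, were near 0, with a median of −0.03 over the 17 tested of 18. Of the 17, 1 gene, Cdk2 (−0.45), was lower at an unadjusted p under 0.05, where 8.79% of all genes tested were. The next smallest p-values in that list belonged to the cyclins Ccne2 (−0.65), Ccnd2 (−0.28) and Ccne1 (−0.25). Ccnd1, Cdk4 and Cdk6, which are among the known miR-34 targets and act in G1, had log2 fold changes of 0.10, −0.01 and −0.19. The p53 target Cdkn1a, or p21, had 0.29. Known miR-34 targets were not examined as a set here, and other genes in these lists may belong to it.

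**Figure D5:**
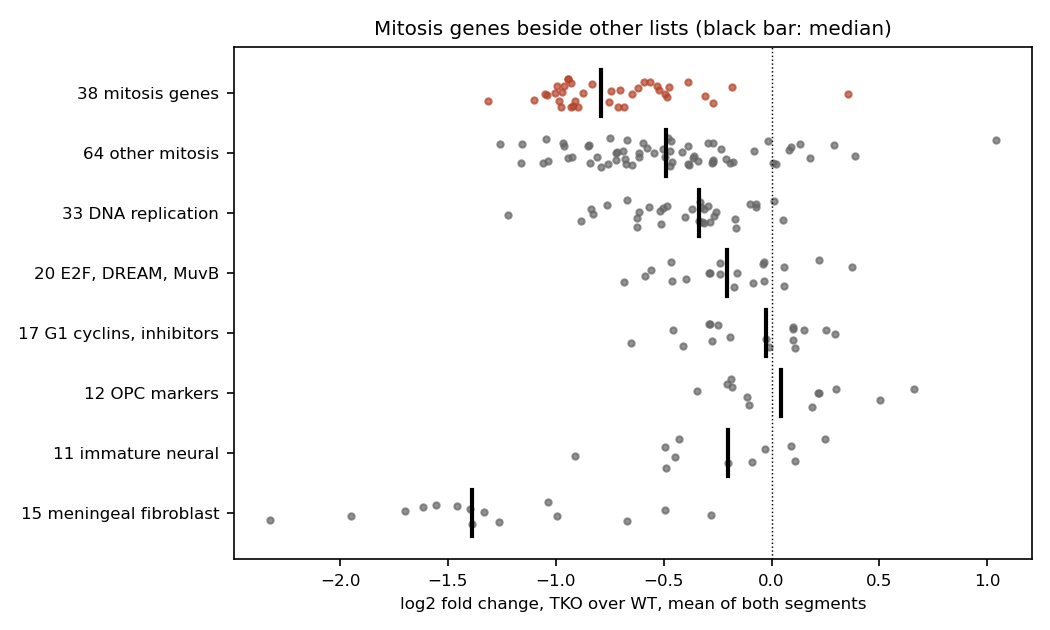
Log2 fold change, TKO over WT, of each gene in the 38 mitosis genes and 7 other lists, with a black bar at each list's median. The medians run from −0.79 in the 38 mitosis genes through −0.49, −0.34, −0.21 and −0.03 in the other cell cycle lists to 0.04 in oligodendrocyte precursor (OPC) markers, −0.20 in immature neural genes and −1.39 in meningeal fibroblast genes.

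Marker genes of cells that could divide in this tissue are given beside these values. The 12 oligodendrocyte precursor markers, among them Pdgfra (−0.11) and Cspg4 (0.66), had a median of 0.04, with 6 above and 6 below 0. Their summed level was 2269 to 2785 CPM in TKO and 2303 to 2530 CPM in WT, so the genotypes overlapped. In the deposited RPKM they did not, at 523 to 566 RPKM in TKO and 452 to 506 RPKM in WT. That RPKM does not carry the TMM factors of the CPM, 0.952 to 1.07 in TKO and 0.938 to 1.04 in WT. The 2 units thus differ in scaling as well as in exon length. The lowest TKO sum, 523 RPKM in lumbar library 2, had a factor of 1.07. The highest WT sum, 506 RPKM in lumbar library 2, had a factor of 1.00. Divided by their factors these 2 sums change order, so the precursor sums do not stay apart with that scaling. At an unadjusted p under 0.05 TKO was higher for 4 of the 12 and lower for 0, against 10.3% and 8.79% of all genes tested. The 12 microglia markers had a median of 0.69 and sums of 586 to 906 CPM in TKO and 531 to 621 CPM in WT. Their sums were 219 to 307 RPKM in TKO and 176 to 187 RPKM in WT, so they overlapped in CPM but not in the deposited RPKM. Of these markers 9 were higher in TKO at an unadjusted p under 0.05, where 10.3% of all genes tested were. Csf1r (0.77, adjusted p = 0.0493) and Ctss (0.76, adjusted p = 0.0458) passed the adjusted threshold by edgeR as higher, where 0.223% of all genes did. The 11 astrocyte markers had a median of 0.41 and sums of 7933 to 9501 CPM in TKO and 7083 to 7812 CPM in WT. The 12 endothelial markers had a median of −0.06 and overlapping sums of 297 to 378 CPM in TKO and 324 to 403 CPM in WT. No gene of these 4 lists was at 0 reads in any library.

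Lists with most markers below 0, as among the mitosis genes, included those of meningeal fibroblasts, blood and immature neural cells. Most were also below 0 among the endothelial markers above and the neuron, pericyte, Schwann cell and muscle markers given at the end. All 15 fibroblast markers were below 0, with a median of −1.39. Lum and Dcn, proteoglycans of the matrix, passed an adjusted p of 0.05 by edgeR as lower, where 0.135% of all genes tested did. The fibroblast sum was 175 to 383 CPM in TKO and 447 to 851 CPM in WT, and 1 marker, Slc22a6, was at 0 reads in some libraries. Of 9 tested red cell and blood markers 8 were below 0, with a median of −1.57 and sums of 372 to 477 CPM in TKO and 526 to 698 CPM in WT, and Hba-a2 (−1.96, adjusted p = 0.0356), whose reads may be shared with its near copy Hba-a1, passed the adjusted threshold by edgeR. Of 11 tested immature neural markers 8 were below 0, with a median of −0.20 and sums of 1286 to 1679 CPM in TKO and 1687 to 1918 CPM in WT. In the lumbar cord 10 of them were below 0, with a median of −0.42. In the thoracic cord 5 were below and 6 above 0, with a median of 0.015, where 36 of the 38 mitosis genes were below 0. Within TKO the fibroblast sum was 223 and 383 CPM in the lumbar libraries numbered 1 and 2 and 175 and 268 CPM in the thoracic ones. In both segments it was thus higher in library 2, where the mitosis sum was lower, while both sums were higher in lumbar than in thoracic TKO libraries of the same number. Within WT the fibroblast sum was 851 and 583 CPM in the lumbar libraries and 447 and 640 CPM in the thoracic ones. There the sum of the 37 mitosis genes other than Anln was 306 and 339 CPM, and 358 and 303 CPM. The part of these markers in the mitosis values was not tested.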

How the data were processed

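Per the labels' protocols, RNA was purified with a column kit and made into stranded libraries of polyadenylated RNA. The authors deposited 1 table per library with read counts, RPKM and TPM per gene, per the file headers. The deposited counts are raw total gene reads, the sum of exon and intron reads, and they include multiply placed reads, although at least 97.2% of each mitosis gene's reads were uniquely placed. The deposited RPKM, which does not carry the TMM factors, was used for levels per exon length and the deposited TPM was not used. Reads were placed on mm10, per the submitters' processing notes. For the aligner, counter and strand setting nothing is given in the sources used here, so antisense reads cannot be told apart.

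Counts were scaled with TMM factors, filtered with filterByExpr and tested with edgeR 4.0.16 (R 4.3.3, robust quasi-likelihood fit) over all 17067 remaining genes, with 1 mean for each of 4 groups in 1 fit of 8 libraries and Benjamini-Hochberg adjustment at 0.05. The contrasts were TKO minus WT over both segments, in each segment, their difference, and thoracic minus lumbar. The scripts were tested on simulated data. Alternatives were DESeq2 1.42.0, limma 3.58.1 on voom values and on log2(RPKM + 0.5) or log2(RPKM + 0.1), other size factors, filters and read classes, a replicate block, a mitochondrial covariate and leaving out libraries. No 2 libraries of a group agreed within counting noise, since the chi-square over its degrees of freedom was 14.6 or more. The mitosis genes, role lists and marker lists were chosen with earlier results of these data known. Library values are given for Mki67, Top2a, Cdk1, Ccnb1 and Nusap1, for the 2 genes with the smallest p of each role, and for any gene with the opposite sign to the median; of each other cell cycle list up to 4 genes with the smallest p are named, and Ccnd1, Cdk4, Cdk6, Cdkn1a, Pdgfra and Cspg4 were named outside that rule. With at least 9 reads per gene and library, counting error is largest in Ndc80, Ttk and Bub1.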

Additional observations from a re-analysis of the deposited data

How the results depend on the processing

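The 38 genes kept their direction over both segments in all 874 values of the 23 other fits. The count lower at an adjusted p under 0.05, 0 in the reported edgeR fit, was 16 with DESeq2 (279 genes lower and 344 higher in all), 9 with no filter on low counts (140 genes lower and 170 higher in all, against 23 and 38), and 15, with Anln higher, when the mitochondrial share was a covariate (418 lower and 389 higher in all). The cause was not tested. With a replicate block the count was 6, and 107 genes were lower and 115 higher in all. The labels do not pair the numbers, and the deviations of same-numbered libraries correlated at 0.313 to 0.442 between lumbar TKO, thoracic TKO and thoracic WT but at −0.330 to −0.208 with lumbar WT. A crossed replicate block that exchanged the 2 lumbar WT numbers, chosen after seeing the data, gave 34 genes, with 2205 genes lower and 2555 higher in all. Leaving out 1 library at a time gave 0 to 5 genes at an adjusted p and 24 to 34 at an unadjusted p under 0.05, and medians of −1.04 to −0.65 over both segments, −1.03 to −0.50 in the lumbar cord and −1.18 to −0.53 in the thoracic cord, where a lone library is assumed to vary like the other groups. In these fits 0.0171% to 0.529% of all genes were lower at an adjusted p and 4.52% to 13.5% at an unadjusted p under 0.05. Without both TKO libraries numbered 2 the unadjusted count was 18 in place of 32. On log2(RPKM + 0.5) the median was −0.47, since that pseudocount is large beside these levels, and on log2(RPKM + 0.1) it was −0.76. Counts of exon reads gave 3 genes lower and 9 higher in all and unique reads 41 and 63. With 2 libraries a group, the lumbar and thoracic results rest on a spread shared over all groups.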

Other observations

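Further marker lists had these values over both segments, TKO over WT on the log2 scale. Neuron markers had a median of −0.12 over 12 genes and sums of 2815 to 3754 CPM in TKO and 3404 to 4081 CPM in WT. Pericyte markers had −0.17 over 10 genes, with 236 to 336 CPM in TKO and 306 to 390 CPM in WT, and ependymal markers had 0.24 over 12 genes, with 47.0 to 61.7 CPM in TKO and 39.5 to 50.1 CPM in WT. Schwann cell markers, which include the Mbp that oligodendrocytes also express, had −0.19 over 10 genes. Marrow and immune markers had 0.38 over 10 tested genes, and 1 TKO library, lumbar replicate 2, held 136 CPM of them against 24.95 to 54.4 CPM in the other TKO libraries and 43.0 to 61.7 CPM in the WT libraries. Muscle markers had −1.42 over 7 tested genes. Their sums were 5.23 to 14.9 CPM in TKO and 9.39, 5.16 and 10.6 CPM in 3 WT libraries, while thoracic WT library 1 held 79.5 CPM, and the lumbar median, without that library, was −0.49. Bone and cartilage markers had 0.24 over 8 tested genes.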
